A study of Rattus norvegicus with 16 samples.

Results

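The forepaw flexor tendon and the supraspinatus tendon of Sprague Dawley rats were compared, a distal tendon that bends the digits against a proximal one that ties a rotator cuff muscle to the head of the humerus. The groups were 4 flexor and 4 supraspinatus RNA-seq libraries, taken by their tissue label, 8 of the 16 libraries in the series. The other 8 came from Achilles and patellar tendon and entered the fit to estimate the spread between libraries. In fits of all 16 libraries with a muscle term they also helped to set the slope on that term. The labels give the strain and the tendon of each library and name no treatment. Age, sex, pooling of animals and the length of muscle left on each tendon were not given in the sources used here. The titles number the rats 1 to 4 in each tendon without saying whether a number marks 1 animal, and p-values here therefore cover only how far libraries of 1 tendon differ, which may be technical. All 23285 genes of the count table were taken and 16948 passed the filter on low counts. The study set out to find mRNAs that differ between tendons at different sites of the limbs.

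Tendon cells make and maintain parallel bundles of type I collagen. The transcription factors Scleraxis (Scx) and Mohawk (Mkx) mark the lineage, and tenomodulin (Tnmd), a membrane protein, marks its mature cells. Limb position is laid down in the embryo along the axis from shoulder to digits, with the 5′ members of the HoxD cluster and Sall1 active in the hand plate and the Meis factors active next to the trunk. Adult connective tissue cells are known to keep part of this code. A whole tendon also holds nerve, vessels, fat cells, sheath and, at its upper end, muscle fibres, and in bulk RNA fewer cells of a type and less RNA per cell cannot be told apart.

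Both tissues carried the markers of tendon. Levels are in CPM, counts brought to 1 common library total, on library sizes scaled by TMM, edgeR's trimmed mean normalization, and means are given with the SD over 4 libraries. Collagen I (Col1a1) averaged 22731 ± 5280.1 CPM in flexor, against 41690.4 ± 13396 CPM in supraspinatus tendon. The tendon proteoglycan fibromodulin (Fmod) averaged 5508 ± 1518 CPM in flexor, against 7403 ± 1626 CPM in supraspinatus tendon. Library totals ran between 92673343 and 102130759 counts in flexor and between 81788059 and 101675519 counts in supraspinatus tendon, and no pair of libraries within a tendon was near to a repeat of the same counts. The TMM factors were 1.01 to 1.05 in flexor and 0.731 to 0.876 in supraspinatus libraries, so the supraspinatus counts were scaled more strongly.

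The tendons differed in many genes. With edgeR's quasi-likelihood test and a Benjamini-Hochberg adjusted p under 0.05, 3964 genes were higher and 4118 were lower in flexor than in supraspinatus tendon, which is 47.7% of the genes tested (23.4% higher and 24.3% lower). The counts of list members given below are to be read against these shares, and several lists lie near them. Called genes are those past this threshold in what follows. Of these, 2603 were at least 2-fold higher and 1337 at least 2-fold lower by their fitted fold change. In 8149 genes (48.1%) the 4 flexor and 4 supraspinatus libraries did not overlap. The balance depended on the scaling. With plain library totals in place of TMM, 6591 genes were higher and 1830 lower, and the median gene stood at 0.31 on the log2 scale, against -0.03 with TMM. The authors' deposited table, which holds 12588 genes, lists 3186 as higher and 4204 as lower in flexor tendon at an FDR under 0.05. Of the genes called here, 6689 were listed there in the same direction and 0 in the opposite one.

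**Figure D1:**
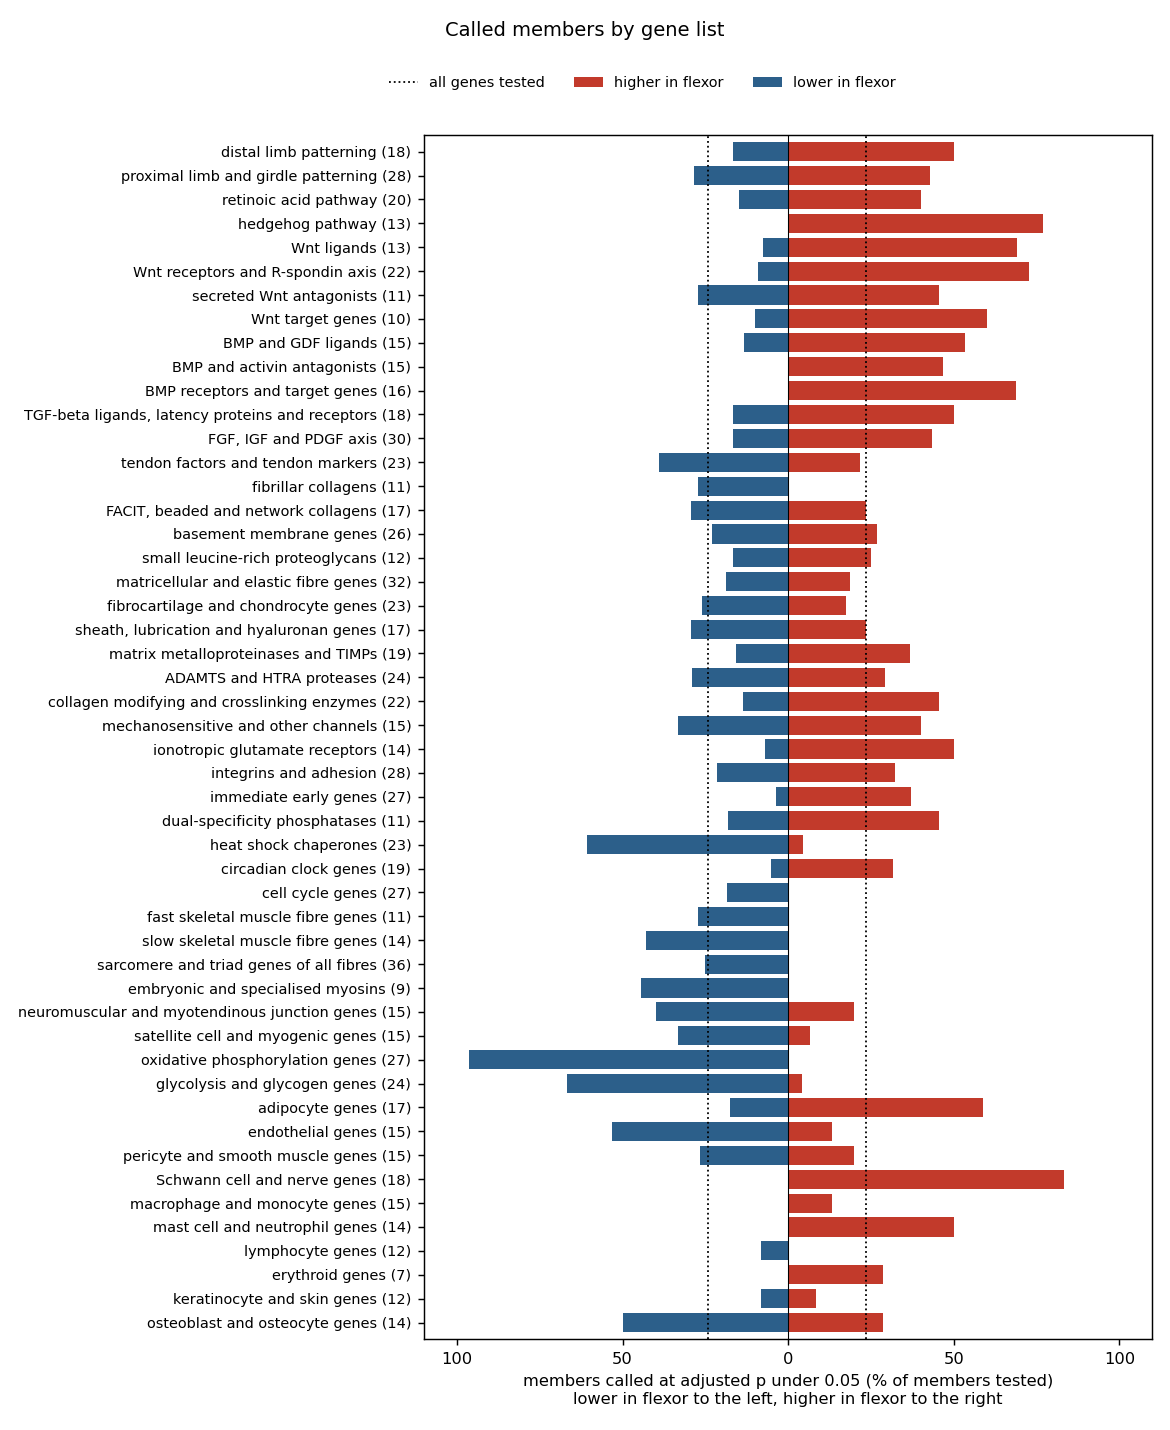
Share of tested members of each gene list that were lower (bars to the left) or higher (bars to the right) in flexor than in supraspinatus tendon at adjusted p under 0.05, in percent, with the number of members tested in brackets and dotted lines at the shares of all genes tested (23.4% higher, 24.3% lower). Schwann cell, hedgehog and Wnt receptor genes reach furthest to the right and oxidative phosphorylation genes furthest to the left.

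Skeletal muscle RNA was present in every library of both tendons and at a lower level in flexor tendon. Genes of fast fibres and of the sarcomere and triad took 7.44, 4.42, 1.98 and 5.54% of all counts in the flexor libraries, against 17.4, 12.99, 15.4 and 21.1% in the supraspinatus libraries. The means were 4.85 ± 2.28% in flexor and 16.7 ± 3.44% in supraspinatus tendon, and the groups did not overlap. Muscle RNA was scarcer in the hindlimb, at 0.0884 to 1.19% in the Achilles libraries and 0.0638 to 0.575% in 3 of the 4 patellar libraries, with 4.29% in the remaining one. A muscle score was therefore set for each library as the mean log2 CPM of 11 fast fibre genes. It ran from 8.62 to 10.5 in flexor and from 11.9 to 12.9 in supraspinatus libraries.

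**Figure D2:**
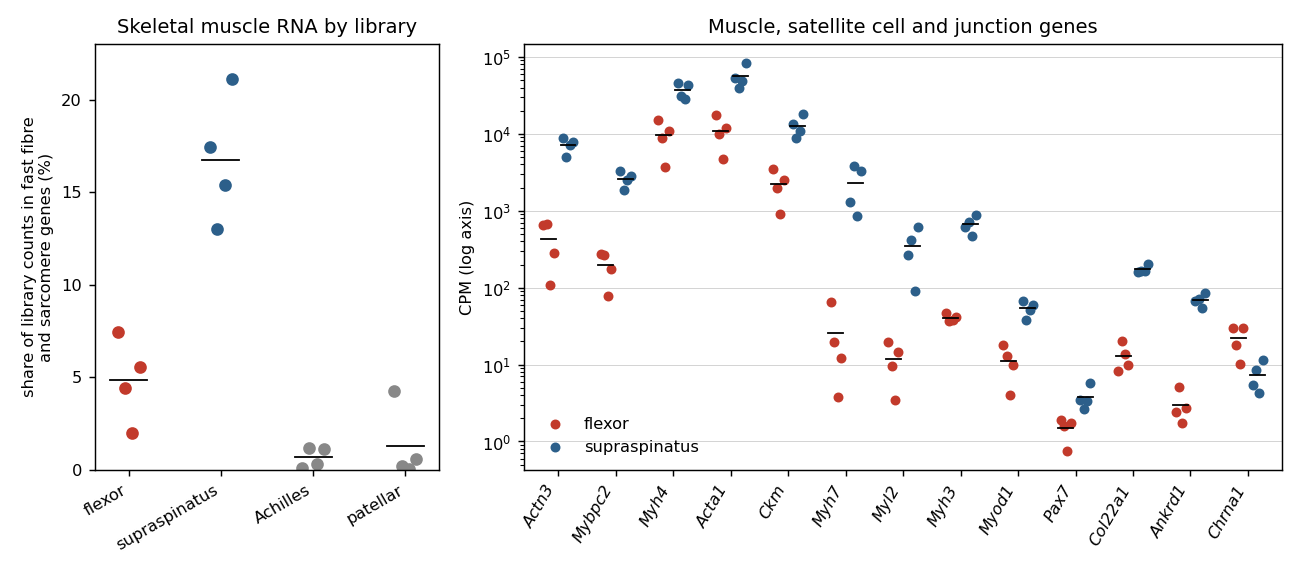
Left, share of library counts in fast fibre, sarcomere and triad genes, in percent, for each of the 4 libraries of each tendon. Right, CPM on a log axis of muscle, satellite cell and junction genes in the 4 flexor (red) and 4 supraspinatus libraries (blue), with bars at the means. All 4 flexor libraries lie between 1.98 and 7.44%, under the supraspinatus libraries at 12.99 to 21.1%, and the acetylcholine receptor gene Chrna1 alone among the genes shown is called higher in flexor tendon.

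Contractile genes of fast fibres lay at lower levels in flexor tendon. Actn3, the actinin of fast Z discs, had 654, 674, 107 and 279 CPM in flexor libraries, against 8809, 4964, 7207 and 7839.9 CPM in supraspinatus libraries. The flexor libraries all lay under the supraspinatus libraries (log2 fold change -4.07, SE 1.17, adjusted p 0.0102). Myosin heavy chain 4 (Myh4), the motor of the fastest fibres, had 15366, 8798, 3684 and 11042 CPM in flexor libraries, against 45736, 30648, 28585 and 43152 CPM in supraspinatus libraries. Its groups did not overlap either, yet the fit over all 16 libraries did not call it (log2 fold change -1.93, SE 1.08, adjusted p 0.158). That fit takes the spread between libraries from all 4 tendons, and in it 3 of 11 fast fibre genes were called lower (median log2 fold change -2.33, against -0.03 for all genes tested). In a fit of the 8 flexor and supraspinatus libraries alone, which called 49.5% of 16096 genes (27.2% higher, 22.3% lower), 11 of 11 were lower, with Myh4 at log2 fold change of -1.84 (SE 0.43, adjusted p 0.00622). Without patellar replicate 1, without patellar replicate 3 and with DESeq2 the count was 8.

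The genes shared by all fibres behaved alike. Of 36 sarcomere and triad genes, 9 were called lower with all 16 libraries (median -2.05) and 31 in the 8 libraries of these tendons, and 0 were higher in either fit. Skeletal actin (Acta1) had 17449.5, 10098, 4712 and 11890.5 CPM in flexor libraries, against 53992, 39537, 48252 and 82586 CPM in supraspinatus libraries. Muscle creatine kinase (Ckm), which buffers ATP in the fibre, had 3452, 1969, 903 and 2499.8 CPM in flexor libraries, against 13246, 8839, 11053 and 17933 CPM in supraspinatus libraries. Neither gene overlapped between the tendons. In the 8-library fit Acta1 had a log2 fold change of -2.26 (SE 0.44, adjusted p 0.00248) and Ckm a log2 fold change of -2.45 (SE 0.42, adjusted p 0.00129). Without Achilles replicate 1, patellar replicate 1 or patellar replicate 3 the count of lower sarcomere and triad genes over the remaining libraries was 14, 23 or 18.

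Acta1 and Ckm are the 2 muscle genes whose start regions are shown, since they carry the muscle signal in every library and their control by the myogenic factors and by serum response factor is textbook knowledge. The sequences run from 250 bases before to 50 bases after the gene's start in RefSeq's rat assembly GRCr8, with Acta1 on the minus strand of chr19:68784145-68784444 and Ckm on the plus strand of chr1:88189211-88189510. Capitals mark the E-box CANNTG, the motif of the myogenic factors, and the CArG box, the motif of serum response factor, on either strand.
Acta1: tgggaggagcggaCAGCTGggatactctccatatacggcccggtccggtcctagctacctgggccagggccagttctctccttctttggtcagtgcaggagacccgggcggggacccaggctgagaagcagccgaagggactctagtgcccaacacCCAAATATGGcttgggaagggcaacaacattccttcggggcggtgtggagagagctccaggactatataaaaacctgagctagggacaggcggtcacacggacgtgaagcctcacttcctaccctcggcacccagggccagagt
Ckm: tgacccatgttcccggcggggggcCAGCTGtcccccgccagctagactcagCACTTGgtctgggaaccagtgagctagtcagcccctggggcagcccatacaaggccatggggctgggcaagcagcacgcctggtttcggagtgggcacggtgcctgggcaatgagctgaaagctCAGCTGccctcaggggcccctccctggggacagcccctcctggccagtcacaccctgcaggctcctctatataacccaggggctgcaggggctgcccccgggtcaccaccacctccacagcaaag
The Acta1 window holds 1 E-box and 1 CArG box, and the Ckm window holds 3 E-boxes. Over the fast fibre and sarcomere lists, 39 of 47 genes had a promoter in the table. Of these, 36 (92.3%) held an E-box, against 71.6% of 27457 rat promoters of the same length, and 3 (7.69%) held a CArG box, against 1.64%. These are matches of letters in a window and no measurement of binding.

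Slow fibre genes had a median log2 fold change of -2.25 and 6 of 14 were called lower. The slow myosin heavy chain (Myh7) had 65.7, 19.9, 3.75 and 12.2 CPM in flexor libraries, against 1291, 3856, 859 and 3248 CPM in supraspinatus libraries. The groups stood far apart, with a wide spread inside each (log2 fold change -6.51, SE 1.55, adjusted p 0.00312). The slow regulatory light chain Myl2 had 19.8, 9.48, 3.42 and 14.5 CPM in flexor libraries, against 268, 421, 91.1 and 624 CPM in supraspinatus libraries and was also lower (log2 fold change -4.89, SE 1.31, adjusted p 0.00646). The count of lower slow fibre genes was 6 with 16 libraries, 10 without Achilles replicate 1 and 11 in the 8-library fit, and 0 of the 14 were higher in any of them. Atp2a2, the calcium pump that slow fibres share with many other cells, was not called at 405 ± 97.1 CPM in flexor, against 374 ± 141 CPM in supraspinatus tendon. Within tendons 0 of the 14 slow fibre genes had a slope on the fast fibre score that passed the test, whereas 29 of 36 sarcomere and triad genes had a positive one.

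Some genes of developing or specialised muscle were lower. Embryonic myosin (Myh3), which adult muscle largely replaces, had 47.1, 36.7, 38.3 and 41.5 CPM in flexor libraries, against 624, 715, 468 and 884 CPM in supraspinatus libraries. Flexor values were close to each other and under every supraspinatus value (log2 fold change -4.04, SE 1.19, adjusted p 0.0114). Myl4, the light chain of embryonic muscle and atrium, averaged 6.65 ± 3.10 CPM in flexor, against 118 ± 30.6 CPM in supraspinatus tendon (log2 fold change -4.14, SE 0.65, adjusted p 1.32e-04). Neonatal myosin (Myh8) averaged 34.1 ± 16.6 CPM in flexor, against 77.7 ± 15.9 CPM in supraspinatus tendon and was not called with 16 libraries (adjusted p 0.2). Of 9 genes in this list 4 were lower and 0 higher.

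The end of the muscle fibre gave a divided picture. Collagen XXII (Col22a1), which is laid down at the myotendinous junction, had 8.26, 19.997, 13.9 and 9.83 CPM in flexor libraries, against 158, 167, 167 and 203 CPM in supraspinatus libraries. The gap between the groups was wide (log2 fold change -3.74, SE 0.63, adjusted p 2.19e-04). Ankrd1, a stretch-responsive sarcomere gene, had 2.41, 5.10, 1.76 and 2.71 CPM in flexor libraries, against 67.9, 71.8, 53.6 and 86.2 CPM in supraspinatus libraries and was likewise lower (log2 fold change -4.54, SE 0.75, adjusted p 2.05e-04). Of the 4 acetylcholine receptor subunits tested, 2 were called higher. Chrna1, the ligand-binding subunit, had 29.8, 18.2, 10.2 and 29.5 CPM in flexor libraries, against 5.50, 8.54, 4.26 and 11.4 CPM in supraspinatus libraries, with 1 overlapping pair of values, and was higher (log2 fold change 1.56, SE 0.37, adjusted p 0.00288). Chrne, the subunit of the adult synapse, averaged 11.1 ± 5.01 CPM in flexor, against 4.92 ± 0.577 CPM in supraspinatus tendon and was higher too (log2 fold change 1.17, SE 0.31, adjusted p 0.00679). Chrnb1 and Chrnd stood at -0.71 and -2.36 and were not called (adjusted p 0.314 and 0.0775), while the 8-library fit called Chrnd lower (adjusted p 0.0169). Of 15 junction genes 3 were higher and 6 lower, and in the 8-library fit 3 were higher and 10 lower.

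Markers of muscle stem cells and their progeny were scarce. Pax7, the satellite cell factor, had 1.88, 1.58, 0.759 and 1.76 CPM in flexor libraries, against 3.42, 2.65, 3.36 and 5.74 CPM in supraspinatus libraries. The groups did not overlap, and the difference was called in the 8-library fit (log2 fold change of -1.26, SE 0.34, adjusted p 0.0122) and not with 16 libraries (adjusted p 0.26). The myogenic factor Myod1 averaged 11.2 ± 5.78 CPM in flexor, against 54.1 ± 12.5 CPM in supraspinatus tendon and followed the same pattern (log2 fold change of -2.19, SE 0.40, adjusted p 0.00186 in the 8-library fit, adjusted p 0.0806 with 16 libraries). Of 15 satellite cell and myogenic genes 1 was higher and 5 lower with 16 libraries, and 2 were higher and 10 lower with 8.

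Energy genes were lower in most cases without a muscle term. Of 27 oxidative phosphorylation genes, 26 were lower and 0 higher (median -1.35). Ndufa4, a subunit of complex IV, had 209, 139, 89.9 and 182 CPM in flexor libraries, against 466, 382, 378 and 797 CPM in supraspinatus libraries without overlap (log2 fold change -1.71, SE 0.26, adjusted p 1.13e-04). Atp5f1b, the catalytic subunit of ATP synthase, averaged 1673 ± 485 CPM in flexor, against 4280.3 ± 1549.6 CPM in supraspinatus tendon (log2 fold change -1.36, SE 0.26, adjusted p 6.78e-04). Of 24 glycolysis and glycogen genes 16 were lower and 1 higher (median -1.34). Aldolase A (Aldoa) averaged 3529 ± 1341 CPM in flexor, against 12547 ± 3159 CPM in supraspinatus tendon (log2 fold change -1.83, SE 0.47, adjusted p 0.00527). Pfkp, the phosphofructokinase of platelets and non-muscle cells, was the one that was higher, at 106 ± 12.2 CPM in flexor, against 80.5 ± 10.3 CPM in supraspinatus tendon (log2 fold change 0.39, SE 0.15, adjusted p 0.0463), and its call was lost in 11 of the 16 fits that left out 1 library.

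To set muscle RNA apart from tendon cell genes, the comparison was refitted with the muscle score of each library as a term. All 16 libraries shared 1 slope on the score, so Achilles and patellar libraries helped to set it. Scores ran from 4.02 to 6.07 in Achilles libraries and, most widely, from 3.26 to 10.4 in patellar libraries. With the score, 3040 genes were higher and 3030 lower in flexor tendon (35.8% called, 17.9% each way). Of the 4118 genes that were lower without it, 2928 stayed lower and 1190 were no longer called. Of the 3964 higher genes, 2922 stayed higher and 1042 were no longer called, and 0 genes changed direction among those called in both fits. The median of the sarcomere and triad genes moved to 0.08, against -2.05 without the score, and that of the oxidative phosphorylation genes to -1.16, against -1.35, with 26 of 27 called lower. The other muscle terms moved the oxidative phosphorylation genes to about 0, with medians of 0.08 for the score in the 8 libraries alone and 0.08 for the muscle share in percent, and 0 of 27 called lower with either. Within tendons 317 of 16937 genes (1.87%) had a slope on the score past the threshold, 309 positive (1.82%) and 8 negative (0.0472%). Of the 309, 292 had a negative fitted log2 fold change, flexor over supraspinatus, without the score, and the test called 141 of them lower. With the score 67 of these 141 stayed lower and 74 were no longer called.

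Many genes outside the lists tracked the muscle score. Of the 309 genes with a positive slope 54 were in the muscle and energy lists and 243 in no list. Mylk2, the kinase of skeletal myosin light chains, had 166, 133, 53.5 and 114 CPM in flexor libraries, against 1376, 935, 1008 and 1203 CPM in supraspinatus libraries (log2 fold change -3.28, SE 0.98, adjusted p 0.0126). With the score its log2 fold change was -1.18 (adjusted p 0.0282). Ampd1, the AMP deaminase of muscle, averaged 86.0 ± 34.4 CPM in flexor, against 756 ± 174 CPM in supraspinatus tendon and had a log2 fold change of -0.35 (adjusted p 0.517) with the score. The water channel gene Aqp4 averaged 14.8 ± 6.82 CPM in flexor, against 108 ± 47.0 CPM in supraspinatus tendon and stood at -0.25 (adjusted p 0.82) on the same scale. Without the score both were called lower (adjusted p 0.0353 for Ampd1 and 0.0272 for Aqp4), calls that were lost without flexor replicate 1, 2 or 3 or supraspinatus replicate 4, and for Ampd1 also without flexor replicate 4 or supraspinatus replicate 1 or 3. Other genes picked by the same rule were Ppp1r27, Tmem233, Shisal2b, Map3k7cl and Atp1b2, and the last pair stayed lower with the score, Map3k7cl at -2.94 (adjusted p 3.26e-05) and Atp1b2 at -2.30 (adjusted p 1.33e-04), though not with the muscle share as the term (adjusted p 0.357 and 0.462).

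**Figure D3:**
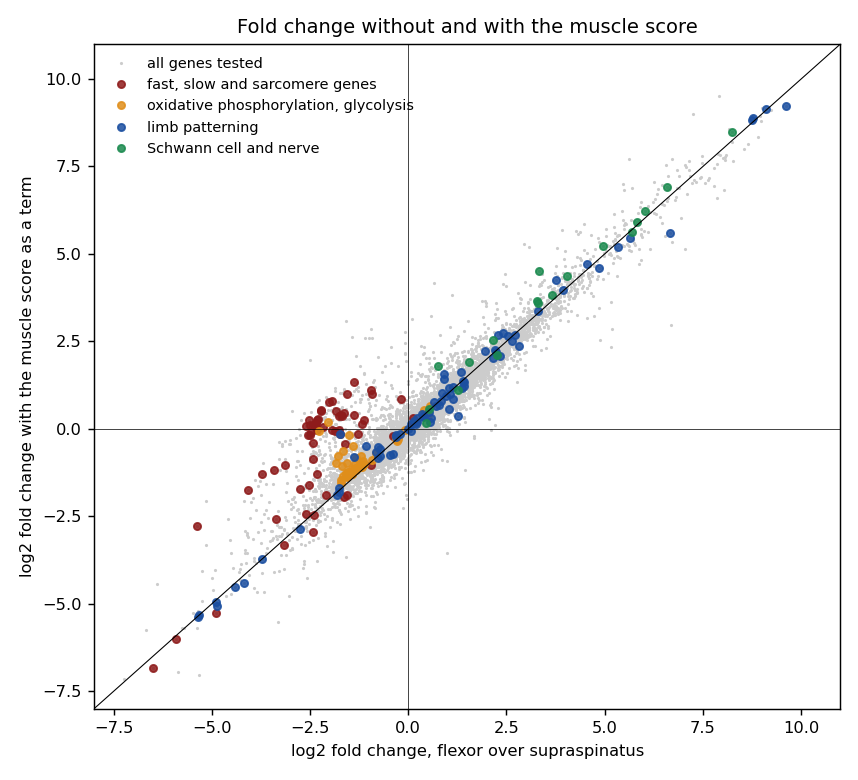
Log2 fold change of each tested gene, flexor over supraspinatus, from the fit without (horizontal axis) and with the muscle score as a term (vertical axis), with an identity line. Most muscle genes (dark red) leave the line towards 0 with the score, with a median of 0.08 for the sarcomere and triad list. The fast fibre genes among them make up the score, so their own shift was set in advance. Blue marks the distal, the proximal and girdle, the retinoic acid and the hedgehog lists together. Of these the distal list has a median of 1.89 with the score, against 1.43 without. The medians are 0.32 against 0.30 for proximal and girdle, 0.38 against 0.56 for retinoic acid and 1.34 against 1.41 for hedgehog genes. The Schwann cell list (green) has 3.74 against 3.31. Tbx5 and Nefl are among the members off the line.

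How many genes remained after muscle was set apart differed with the muscle term. Each fit held a coefficient for each tendon, so a muscle term was estimated from the spread within tendons alone. The scores of these tendons did not overlap, so that slope was carried across the gap between them. A score term in the 8 libraries alone left 1705 higher and 182 lower genes (10.6% and 1.13%). The muscle share in percent as a term with 16 libraries left 392 higher and 120 lower genes (2.31% and 0.708%, together 3.02%). Genes called without a term and with each of the 3 muscle terms in the same direction numbered 365 higher (2.15%) and 40 lower (0.236%). The 365 include Sall1, Hoxd13, Hoxd11, Hoxd10, Hand2, Tbx18, Sox10, Lgr4, Id4, Bmp6, Itgb5, Mmp3 and Plin1. The 40 include Meis1, Meis2, Hoxc4, Hoxc5, Hoxc6, Tnc, Postn, Bmp5, Pappa2, Chodl and Col2a1. No member of the slow, energy or endothelial lists was among either. The fast fibre and sarcomere lists had none either, but this was largely set in advance. Fast fibre genes make up the score and, with the sarcomere and triad genes, the share.

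In the distal limb program 9 of 18 genes were higher in flexor tendon, and Sall1 and Hoxd13 had the 2 largest fitted fold changes of all genes named here. Hoxd13, the last gene of the HoxD cluster and a digit regulator, had 16.6, 14.2, 22.1 and 17.2 CPM in flexor libraries, against 0.0613, 0.0127, 0 and 0.0485 CPM in supraspinatus libraries. It was close to absent in supraspinatus tendon (log2 fold change 9.10, SE 0.67, adjusted p 3.42e-07). Sall1, a zinc finger factor of the hand plate whose loss in people alters the thumb, had 7.58, 11.4, 17.1 and 11.3 CPM in flexor libraries, against 0, 0.0255, 0.0140 and 0.0162 CPM in supraspinatus libraries (log2 fold change 9.62, SE 0.55, adjusted p 6.25e-08), with 4 counts in all in the supraspinatus libraries. Hoxd11 had 5.16, 4.04, 6.14 and 5.11 CPM in flexor libraries, against 0, 0, 0.0140 and 0.0324 CPM in supraspinatus libraries. Its 3 supraspinatus counts give a ratio of 501.3 (95% counting interval 171.3 to 2433). Hoxd12 had 0.821, 0.323, 0.671 and 0.690 CPM in flexor libraries, against 0 CPM in all 4 supraspinatus libraries, and was at least 61.6-fold higher in flexor tendon when set against 3 counts over the supraspinatus libraries. Counting intervals and bounds cover counting error only.

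The rest of the distal list was mixed. Hoxd10 averaged 16.02 ± 4.16 CPM in flexor, against 0.680 ± 0.454 CPM in supraspinatus tendon (log2 fold change 4.54, SE 0.44, adjusted p 2.98e-06). Lhx2, which acts under the apical ridge of the limb bud, averaged 5.87 ± 1.51 CPM in flexor, against 0.428 ± 0.193 CPM in supraspinatus tendon (log2 fold change 3.77, SE 0.58, adjusted p 1.15e-04). Msx2, a homeobox target of BMP signals, had 13.8, 11.2, 2.62 and 8.39 CPM in flexor libraries, against 2.29, 2.33, 1.34 and 0.777 CPM in supraspinatus libraries with the lowest flexor value in replicate 3 (log2 fold change 2.41, SE 0.54, adjusted p 0.00207). En1, the factor of the ventral limb surface, was lower at 0.210 ± 0.0951 CPM in flexor, against 0.746 ± 0.237 CPM in supraspinatus tendon (log2 fold change -1.82, SE 0.40, adjusted p 0.00166). Of 18 distal genes 9 were higher and 3 lower (median 1.43), and 10 were higher and 2 lower with the muscle score.

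**Figure D4:**
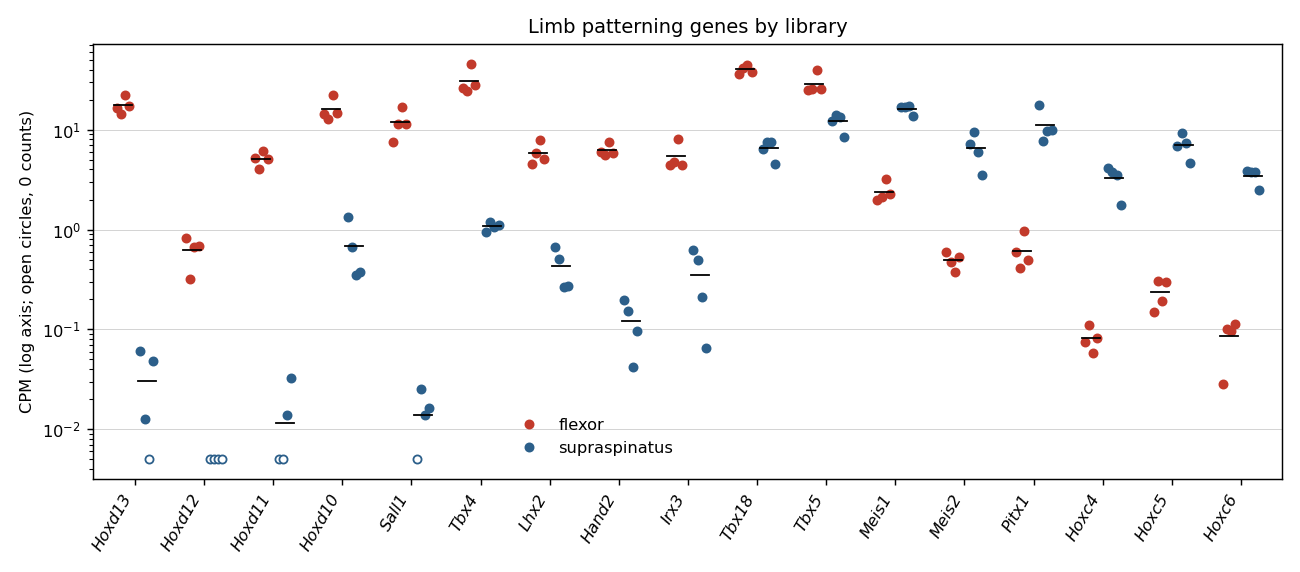
CPM on a log axis of limb patterning genes in the 4 flexor (red) and 4 supraspinatus libraries (blue), with bars at the means and open circles for 0 counts. Hoxd13, Hoxd12, Hoxd11, Hoxd10, Sall1 and Tbx4 lie far higher in flexor tendon and Meis1, Meis2, Pitx1 and Hoxc4 to Hoxc6 far lower, with no overlap for any gene shown.

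Proximal genes split by family. Meis1, a cofactor of Hox proteins near the trunk, had 1.97, 2.14, 3.20 and 2.26 CPM in flexor libraries, against 16.8, 17.1, 17.4 and 13.8 CPM in supraspinatus libraries. Each flexor library lay well under each supraspinatus library (log2 fold change -2.76, SE 0.22, adjusted p 6.33e-07), and Meis2 showed the same at 0.496 ± 0.0920 CPM in flexor, against 6.57 ± 2.46 CPM in supraspinatus tendon (log2 fold change -3.72, SE 0.31, adjusted p 9.26e-07). Several HoxC genes followed them. Hoxc6 had 0.0283, 0.101, 0.0973 and 0.113 CPM in flexor libraries, against 3.86, 3.76, 3.80 and 2.49 CPM in supraspinatus libraries (log2 fold change -5.34, SE 0.31, adjusted p 6.54e-08). Hoxc5 averaged 0.237 ± 0.0759 CPM in flexor, against 7.05 ± 1.89 CPM in supraspinatus tendon and Hoxc4 averaged 0.0818 ± 0.0219 CPM in flexor, against 3.30 ± 1.058 CPM in supraspinatus tendon, and both were lower (log2 fold changes -4.89 and -5.31, adjusted p 6.61e-08 and 2.14e-07). Hoxc8 and Hoxc9, further from the 3′ end, were called lower too (log2 fold changes -4.402 and -4.865). Hoxc9 had only 3 counts over the flexor and 77 over the supraspinatus libraries.

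Other factors of limb field and axis did not follow a simple line from shoulder to hand. Hand2, which positions the posterior organizer of the limb bud, had 6.002, 5.62, 7.54 and 5.88 CPM in flexor libraries, against 0.196, 0.153, 0.0419 and 0.0971 CPM in supraspinatus libraries and was higher (log2 fold change 5.64, SE 0.45, adjusted p 7.57e-07). Irx3 averaged 5.44 ± 1.82 CPM in flexor, against 0.349 ± 0.257 CPM in supraspinatus tendon (log2 fold change 3.94, SE 0.76, adjusted p 6.67e-04). Tbx18 averaged 40.2 ± 3.96 CPM in flexor, against 6.49 ± 1.38 CPM in supraspinatus tendon and was higher as well (log2 fold change 2.63, SE 0.19, adjusted p 3.10e-07). Of 28 proximal and girdle genes 12 were higher and 8 lower (median 0.30), so this list did not move one way. With the muscle score the counts were 9 and 8.

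The factors known for choosing between fore and hind limb differed as well. Tbx5, the forelimb factor, had 25.3, 25.9, 39.4 and 25.3 CPM in flexor libraries, against 12.3, 14.2, 13.5 and 8.41 CPM in supraspinatus libraries. It was higher in flexor tendon without overlap (log2 fold change 1.26, SE 0.46, adjusted p 0.0353), but the call was lost with the muscle score (adjusted p 0.58) and with any of the 8 libraries left out. Tbx4, the hindlimb factor, had 26.2, 24.2, 45.8 and 28.3 CPM in flexor libraries, against 0.956, 1.18, 1.061 and 1.12 CPM in supraspinatus libraries, and was higher in the flexor tendon of the forelimb (log2 fold change 4.85, SE 0.51, adjusted p 5.97e-06). Pitx1, which specifies the hindlimb, had 0.594, 0.413, 0.963 and 0.495 CPM in flexor libraries, against 17.5, 7.78, 9.80 and 9.9999 CPM in supraspinatus libraries and was lower (log2 fold change -4.19, SE 0.61, adjusted p 7.19e-05). For scale, Tbx4 averaged 17.1 CPM in Achilles tendon and 9.07 CPM in patellar tendon and Pitx1 18.0 CPM in Achilles tendon and 15.3 CPM in patellar tendon.

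Retinoic acid, made from vitamin A and broken down in the distal limb bud by Cyp26 enzymes, had genes of synthesis and of breakdown higher in flexor tendon. The synthesis enzyme Aldh1a2 had 21.4, 27.1, 23.2 and 25.8 CPM in flexor libraries, against 3.26, 4.10, 8.16 and 5.36 CPM in supraspinatus libraries (log2 fold change 2.22, SE 0.27, adjusted p 1.84e-05). Aldh1a3, a second enzyme of that step, averaged 37.4 ± 4.20 CPM in flexor, against 5.34 ± 1.53 CPM in supraspinatus tendon (log2 fold change 2.81, SE 0.34, adjusted p 1.85e-05), and Rdh10, the enzyme of the step before, averaged 22.5 ± 1.999 CPM in flexor, against 5.08 ± 1.19 CPM in supraspinatus tendon (log2 fold change 2.15, SE 0.21, adjusted p 3.05e-06). The breakdown enzyme Cyp26b1 averaged 27.0 ± 4.01 CPM in flexor, against 12.3 ± 2.54 CPM in supraspinatus tendon (log2 fold change 1.13, SE 0.15, adjusted p 4.55e-05). The receptor gene Rarb, itself a target of retinoic acid, was lower at 4.34 ± 0.971 CPM in flexor, against 14.7 ± 2.29 CPM in supraspinatus tendon (log2 fold change -1.76, SE 0.29, adjusted p 1.78e-04). Of 20 genes of the pathway 8 were higher and 3 lower (median 0.56).

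Hedgehog signals pass from a ligand to the receptor Patched, which then releases Smoothened. No gene of this pathway was called lower, and 10 of 13 were higher (median 1.41, 8 with the muscle score). Gas1, a membrane protein that helps cells bind the ligand, had 405, 441, 737 and 582 CPM in flexor libraries, against 16.9, 16.5, 11.8 and 8.25 CPM in supraspinatus libraries (log2 fold change 5.34, SE 0.86, adjusted p 1.60e-04). Desert hedgehog (Dhh), the ligand made by Schwann cells, had 13.5, 12.8, 4.73 and 13.1 CPM in flexor libraries, against 0.993, 0.777, 1.17 and 1.52 CPM in supraspinatus libraries, with the lowest flexor value in replicate 3 (log2 fold change 3.31, SE 0.33, adjusted p 3.42e-06). Sonic hedgehog (Shh) was found at 470 counts over the flexor libraries and 3 in supraspinatus replicate 1, a ratio of 113.5 (95% counting interval 38.6 to 552.6). The pathway's own readouts moved less. The receptor and target gene Ptch1 averaged 36.7 ± 11.2 CPM in flexor, against 14.1 ± 3.22 CPM in supraspinatus tendon (log2 fold change 1.38, SE 0.32, adjusted p 0.00259), and Gli1 averaged 7.85 ± 2.49 CPM in flexor, against 4.96 ± 1.35 CPM in supraspinatus tendon and was not called (adjusted p 0.0745).

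Most Wnt receptor genes were higher in flexor tendon. Lgr4, a receptor for R-spondins that raises the response to Wnt ligands, had 65.6, 67.7, 77.6 and 71.6 CPM in flexor libraries, against 7.43, 7.75, 7.44 and 6.46 CPM in supraspinatus libraries. It had the smallest adjusted p of all genes (log2 fold change 3.28, SE 0.13, adjusted p 1.94e-09), with a standard deviation of 5.25 CPM in flexor and 0.563 CPM in supraspinatus libraries. The coreceptors followed: Lrp5 averaged 120.5 ± 31.8 CPM in flexor, against 16.8 ± 3.62 CPM in supraspinatus tendon (log2 fold change 2.84, SE 0.35, adjusted p 1.89e-05) and Lrp6 98.7 ± 17.5 CPM in flexor, against 19.98 ± 2.10 CPM in supraspinatus tendon (log2 fold change 2.30, SE 0.23, adjusted p 4.31e-06). The frizzled receptor Fzd9 had 29.7, 31.4, 82.2 and 53.6 CPM in flexor libraries, against 2.17, 2.52, 1.69 and 2.69 CPM in supraspinatus libraries (log2 fold change 4.44, SE 0.50, adjusted p 1.02e-05). Fzd4, the norrin receptor of vessels, was one of 2 that were lower, at 31.7 ± 3.63 CPM in flexor, against 77.4 ± 8.24 CPM in supraspinatus tendon (log2 fold change -1.29, SE 0.16, adjusted p 1.75e-05). Of 22 receptor and R-spondin genes 16 were higher and 2 lower (median 1.96).

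Ligands and antagonists of the Wnt pathway also differed in number and direction. Of 13 ligand genes 9 were higher and 1 lower (median 2.07). Wnt11 had 36.7, 39.9, 51.6 and 40.7 CPM in flexor libraries, against 9.15, 11.4, 7.09 and 5.78 CPM in supraspinatus libraries (log2 fold change 2.33, SE 0.32, adjusted p 5.06e-05), and Wnt6 averaged 4.84 ± 2.25 CPM in flexor, against 0.226 ± 0.152 CPM in supraspinatus tendon (log2 fold change 4.39, SE 0.63, adjusted p 6.81e-05). Wnt16, a ligand of bone and joint, was the lower one at 1.03 ± 0.318 CPM in flexor, against 3.14 ± 1.53 CPM in supraspinatus tendon, and its call was lost without supraspinatus replicate 4. Secreted antagonists split, with 5 of 11 higher and 3 lower. Sfrp5 averaged 57.7 ± 24.2 CPM in flexor, against 0.6253 ± 0.474 CPM in supraspinatus tendon (log2 fold change 6.50, SE 0.74, adjusted p 1.12e-05). Wif1, by contrast, had 166, 153, 384 and 252 CPM in flexor libraries, against 1028, 1209, 997 and 798 CPM in supraspinatus libraries and was lower (log2 fold change -2.08, SE 0.69, adjusted p 0.0226), a call lost without flexor replicate 1 or 2. The Wif1 call was also lost with the muscle score (-1.14, adjusted p 0.194) and with the muscle share (adjusted p 0.812). It was kept with the score in the 8 libraries alone (adjusted p 0.00106). Sfrp2 averaged 6.83 ± 1.52 CPM in flexor, against 42.5 ± 19.5 CPM in supraspinatus tendon (log2 fold change -2.64, SE 0.47, adjusted p 3.73e-04).

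Of 10 Wnt target genes 6 were higher and 1 lower. Nkd1, a feedback inhibitor, had 22.0, 22.8, 14.8 and 15.9 CPM in flexor libraries, against 2.53, 2.95, 2.27 and 1.93 CPM in supraspinatus libraries (log2 fold change 2.96, SE 0.32, adjusted p 6.58e-06), and Apcdd1, another inhibitor, averaged 31.3 ± 9.50 CPM in flexor, against 5.76 ± 1.90 CPM in supraspinatus tendon (log2 fold change 2.44, SE 0.22, adjusted p 1.88e-06). Axin2, the standard readout of the pathway, averaged 3.57 ± 0.816 CPM in flexor, against 2.29 ± 0.455 CPM in supraspinatus tendon, with overlapping libraries (log2 fold change 0.64, SE 0.22, adjusted p 0.0288), and its call was lost in 8 of the 16 fits that left out 1 library. Ccnd1 averaged 100.3 ± 24.4 CPM in flexor, against 137 ± 16.95 CPM in supraspinatus tendon and was the lower one (log2 fold change -0.45, SE 0.17, adjusted p 0.0368), a call that the 8-library fit and 6 of the 8 fits without 1 of these libraries did not make.

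BMP signals were represented by different ligands in the tendons. Bmp6 had 21.2, 24.4, 26.3 and 24.7 CPM in flexor libraries, against 2.62, 2.04, 2.51 and 2.96 CPM in supraspinatus libraries (log2 fold change 3.25, SE 0.22, adjusted p 1.92e-07). Bmp7 averaged 2.18 ± 1.005 CPM in flexor, against 0.138 ± 0.0713 CPM in supraspinatus tendon (log2 fold change 3.97, SE 0.71, adjusted p 3.48e-04). Bmp5 went the other way, with 8.60, 7.89, 10.8 and 12.1 CPM in flexor libraries, against 45.9, 60.5, 87.6 and 54.3 CPM in supraspinatus libraries (log2 fold change -2.66, SE 0.28, adjusted p 5.08e-06). Gdf5, a joint and tendon ligand, was scarce at 0.490 ± 0.177 CPM in flexor, against 1.31 ± 0.586 CPM in supraspinatus tendon and lower (log2 fold change -1.42, SE 0.35, adjusted p 0.00402). Of 15 BMP and GDF ligands 8 were higher and 2 lower.

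Downstream of the BMP ligands no tested receptor or target was called lower. Of 16 such genes 11 were higher (median 0.64). Id4, a target gene and inhibitor of basic helix-loop-helix factors, had 99.0, 105, 133 and 123 CPM in flexor libraries, against 7.99, 7.41, 7.37 and 7.75 CPM in supraspinatus libraries (log2 fold change 3.91, SE 0.24, adjusted p 9.71e-08). Smad6, the feedback inhibitor of the pathway, had 35.3, 36.2, 36.4 and 34.1 CPM in flexor libraries, against 1.83, 1.69, 2.02 and 1.52 CPM in supraspinatus libraries (log2 fold change 4.33, SE 0.54, adjusted p 2.27e-05). The receptor Bmpr1a averaged 62.3 ± 10.2 CPM in flexor, against 12.1 ± 1.36 CPM in supraspinatus tendon (log2 fold change 2.37, SE 0.29, adjusted p 1.82e-05). Id1, the most used target, averaged 179.9 ± 18.8 CPM in flexor, against 116 ± 52.3 CPM in supraspinatus tendon and was not called (adjusted p 0.0598). Of 15 antagonists 7 were higher and 0 lower, among them Sostdc1 at 17.3 ± 7.32 CPM in flexor, against 0.300 ± 0.138 CPM in supraspinatus tendon (log2 fold change 5.86, SE 0.94, adjusted p 1.63e-04) and Grem1 at 198 ± 46.2 CPM in flexor, against 109.9 ± 19.6 CPM in supraspinatus tendon (log2 fold change 0.85, SE 0.33, adjusted p 0.0439). The call on Grem1 was lost in 10 of the fits without 1 library.

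TGF-beta and growth factor genes shifted by member. Ltbp4, which tethers latent TGF-beta to microfibrils, averaged 1422 ± 218 CPM in flexor, against 478 ± 102 CPM in supraspinatus tendon (log2 fold change 1.57, SE 0.24, adjusted p 1.05e-04). Inhbb, a subunit of activin B, had 10.2, 11.9, 11.1 and 9.80 CPM in flexor libraries, against 0.650, 0.942, 0.209 and 0.712 CPM in supraspinatus libraries (log2 fold change 4.09, SE 0.39, adjusted p 2.64e-06). Of 18 genes of that axis 9 were higher and 3 lower. In the FGF, IGF and PDGF axis 13 of 30 were higher and 5 lower, or 2 lower without supraspinatus replicate 4 and 3 lower without supraspinatus replicate 1 or flexor replicate 3. Igfbp7, a secreted binding protein, had 766, 797, 961 and 962 CPM in flexor libraries, against 104, 87.2, 99.9 and 73.3 CPM in supraspinatus libraries (log2 fold change 3.26, SE 0.38, adjusted p 1.34e-05). Fgfr2 averaged 53.8 ± 17.2 CPM in flexor, against 7.20 ± 2.41 CPM in supraspinatus tendon (log2 fold change 2.90, SE 0.33, adjusted p 1.09e-05). Pappa2, the protease that frees IGF from its binding proteins, averaged 0.637 ± 0.112 CPM in flexor, against 8.09 ± 2.26 CPM in supraspinatus tendon and was lower (log2 fold change -3.66, SE 0.25, adjusted p 2.09e-07), while Igf1 averaged 106 ± 16.6 CPM in flexor, against 80.8 ± 15.3 CPM in supraspinatus tendon and was not called (adjusted p 0.0509).

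Tendon markers themselves were not uniformly lower or higher. Scx had 35.7, 42.9, 38.4 and 31.4 CPM in flexor libraries, against 27.5, 22.96, 16.3 and 10.8 CPM in supraspinatus libraries. The flexor values all lay above the supraspinatus values, but the fit over 16 libraries did not call the difference (log2 fold change 0.93, SE 0.60, adjusted p 0.214), and the 8-library fit did (log2 fold change of 1.002, SE 0.26, adjusted p 0.00994). Mkx overlapped, at 29.96 ± 5.67 CPM in flexor, against 34.4 ± 11.02 CPM in supraspinatus tendon (adjusted p 0.665). Tnmd had 246, 277, 336 and 238 CPM in flexor libraries, against 1054, 999, 585 and 421 CPM in supraspinatus libraries and was lower (log2 fold change -1.48, SE 0.44, adjusted p 0.012). The call on Tnmd was lost with the muscle score (-1.40, adjusted p 0.0646) and with the muscle share (adjusted p 0.153). It was kept with the score in the 8 libraries alone (adjusted p 0.0464). Keratocan (Kera), a proteoglycan of cornea and tendon, averaged 363 ± 93.0 CPM in flexor, against 1038 ± 299 CPM in supraspinatus tendon (log2 fold change -1.52, SE 0.42, adjusted p 0.00829). Of 23 tendon genes 5 were higher and 9 lower (median -0.43), and 3 were higher and 6 lower with the muscle score.

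Tenascin C and periostin, matrix proteins of loaded and healing tissue, were lower. Tenascin C (Tnc) had 111, 149, 109.7 and 111 CPM in flexor libraries, against 912, 756, 650.2 and 415 CPM in supraspinatus libraries. Every flexor library was under every supraspinatus library (log2 fold change -2.51, SE 0.33, adjusted p 3.22e-05), and it passed with each of the 3 muscle terms. Periostin (Postn) had 56.2, 76.3, 90.0 and 112 CPM in flexor libraries, against 318, 619, 294 and 175 CPM in supraspinatus libraries, also without overlap, and passed all 3 as well (log2 fold change -2.07, SE 0.39, adjusted p 4.98e-04).

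Few fibrillar collagens were called. Col1a1 had 19796, 29049, 24873 and 17206 CPM in flexor libraries, against 50213, 55429, 34382 and 26737 CPM in supraspinatus libraries, with overlap, and was called lower only just (log2 fold change -0.88, SE 0.33, adjusted p 0.0413). The call was lost with the 8 libraries alone, and without flexor replicate 1 or 4 or supraspinatus replicate 1 or 2. Col3a1 averaged 13295 ± 1891 CPM in flexor, against 17304 ± 4710.4 CPM in supraspinatus tendon and Col5a1 averaged 851 ± 115 CPM in flexor, against 773 ± 252 CPM in supraspinatus tendon, and neither was called (adjusted p 0.281 and 0.675). Of 11 fibrillar collagens 0 were higher and 3 lower. The count was 5 without supraspinatus replicate 4, without Achilles replicate 1 or 4 and with DESeq2.

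Collagen II was lower, with unequal supraspinatus libraries. Collagen II (Col2a1), the collagen of cartilage and fibrocartilage, had 9.19, 16.8, 9.46 and 11.4 CPM in flexor libraries, against 2019, 4173, 195 and 669 CPM in supraspinatus libraries. The lowest and highest supraspinatus libraries lay far apart, yet both were above all flexor libraries (log2 fold change -7.23, SE 0.88, adjusted p 1.84e-05). Snorc, a cartilage proteoglycan, ordered the supraspinatus libraries likewise, with 0.217, 0.131, 0.233 and 0.206 CPM in flexor libraries, against 9.77, 13.1, 0.963 and 1.49 CPM in supraspinatus libraries (log2 fold change -4.997, SE 0.89, adjusted p 3.57e-04). Aggrecan (Acan) averaged 53.5 ± 25.0 CPM in flexor, against 119.6 ± 45.1 CPM in supraspinatus tendon and Sox9, the chondrocyte factor, averaged 124 ± 48.0 CPM in flexor, against 53.5 ± 7.83 CPM in supraspinatus tendon, and neither passed the test with 16 libraries (adjusted p 0.0797 for Acan and 0.0749 for Sox9), while both passed with the 8 libraries alone (adjusted p 0.028 and 0.00185). Of 23 fibrocartilage and chondrocyte genes 4 were higher and 6 lower, and the summed level ran from 15340 to 28130 CPM in flexor and from 13860 to 21430 CPM in supraspinatus libraries. The part of an insertion or cartilage piece in these values was not tested.

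Secreted proteins named beside them differed from member to member. Cilp, the cartilage intermediate layer protein, had 1381, 1383, 2405 and 1500.1 CPM in flexor libraries, against 370.0, 462, 461 and 375 CPM in supraspinatus libraries and was higher (log2 fold change 2.0, SE 0.24, adjusted p 1.54e-05), and its relative Cilp2 averaged 1731 ± 441 CPM in flexor, against 266 ± 82.8 CPM in supraspinatus tendon (log2 fold change 2.70, SE 0.59, adjusted p 0.00171). Cochlin (Coch), best known from the inner ear, had 623, 936, 915 and 857 CPM in flexor libraries, against 4.94, 4.33, 2.34 and 3.46 CPM in supraspinatus libraries. Every flexor library lay far above every supraspinatus library (log2 fold change 7.79, SE 0.93, adjusted p 1.61e-05). Comp averaged 5667 ± 2270.5 CPM in flexor, against 3891 ± 722 CPM in supraspinatus tendon, and Prg4, the lubricin of gliding surfaces, averaged 1246 ± 229 CPM in flexor, against 809 ± 129 CPM in supraspinatus tendon. Neither was called with 16 libraries (adjusted p 0.249 for Comp and 0.0953 for Prg4), although the Prg4 libraries did not overlap and passed in the 8-library fit (adjusted p 0.0093).

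Matricellular and proteoglycan genes moved in both directions. Fibulin 1 (Fbln1), of elastic fibres and basement membranes, had 393, 406, 618 and 409.7 CPM in flexor libraries, against 51.1, 43.7, 25.7 and 16.9 CPM in supraspinatus libraries (log2 fold change 3.73, SE 0.54, adjusted p 6.63e-05). Wisp2, a CCN family protein, averaged 205 ± 27.6 CPM in flexor, against 13.7 ± 7.96 CPM in supraspinatus tendon (log2 fold change 3.90, SE 0.38, adjusted p 3.05e-06). Thbs1, which binds and activates TGF-beta, was lower at 206 ± 34.3 CPM in flexor, against 648 ± 92.6 CPM in supraspinatus tendon (log2 fold change -1.66, SE 0.27, adjusted p 1.59e-04). Of 32 such genes 6 were higher and 6 lower (37.5% called, against 47.7% of all genes tested). Among small leucine-rich proteoglycans, decorin (Dcn) had 11629, 12979, 19288 and 15460.5 CPM in flexor libraries, against 8526, 7759, 7584 and 6014 CPM in supraspinatus libraries and was higher (log2 fold change 0.99, SE 0.27, adjusted p 0.00709), while biglycan (Bgn) had 612, 683, 1224 and 865 CPM in flexor libraries, against 1982, 2188, 2153 and 1453 CPM in supraspinatus libraries and was lower (log2 fold change -1.20, SE 0.27, adjusted p 0.00214). Of 12 in that list 3 were higher and 2 lower, or 4 lower without flexor replicate 3. The Dcn call was lost with each of the 3 muscle terms (0.69, adjusted p 0.0859 with the score).

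**Figure D5:**
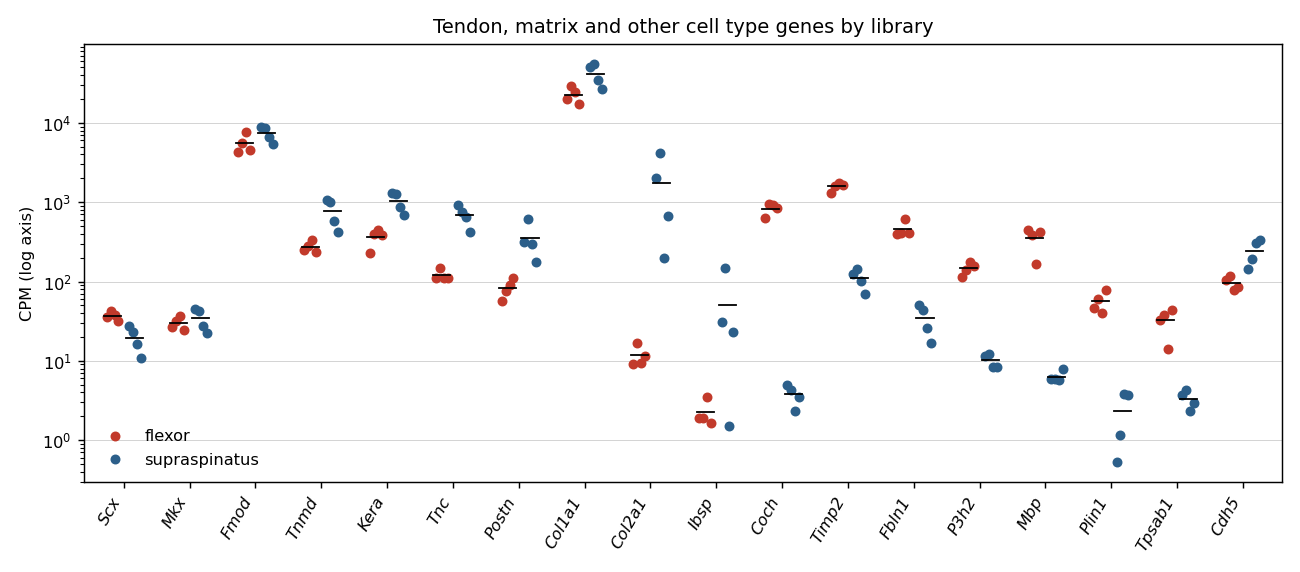
CPM on a log axis of tendon, matrix and other cell type genes in the 4 flexor (red) and 4 supraspinatus libraries (blue), with bars at the means. Mkx and Fmod lie close together in both tendons. Scx lies higher in flexor tendon, without a call over 16 libraries, and Col1a1 lies lower, with overlapping libraries. Tnmd, Kera, Tnc, Postn and Col2a1 lie lower in flexor tendon, and Coch, Timp2, Fbln1, P3h2, Mbp, Plin1 and Tpsab1 lie higher.

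Enzymes that cut and shape the matrix split in direction. Timp2, an inhibitor of matrix metalloproteinases, had 1317, 1617, 1766 and 1668 CPM in flexor libraries, against 125, 142, 102 and 69.4 CPM in supraspinatus libraries (log2 fold change 3.86, SE 0.50, adjusted p 2.90e-05). Mmp3, a protease of matrix proteoglycans, had 66.4, 74.1, 66.6 and 64.3 CPM in flexor libraries, against 8.68, 12.2, 6.50 and 3.98 CPM in supraspinatus libraries (log2 fold change 3.11, SE 0.28, adjusted p 1.68e-06). Mmp9, made by osteoclasts and neutrophils, was scarce and lower at 0.109 ± 0.0169 CPM in flexor, against 0.834 ± 0.445 CPM in supraspinatus tendon (log2 fold change -2.92, SE 0.47, adjusted p 1.77e-04). The serine protease Htra1 averaged 1389 ± 426 CPM in flexor, against 323 ± 102 CPM in supraspinatus tendon (log2 fold change 2.10, SE 0.52, adjusted p 0.00398), and Adamts2, which trims procollagen, averaged 308 ± 62.7 CPM in flexor, against 75.9 ± 28.1 CPM in supraspinatus tendon (log2 fold change 2.02, SE 0.42, adjusted p 0.00107). Of 19 metalloproteinase and TIMP genes 7 were higher and 3 lower (5 and 4 with the muscle score), or 5 lower without patellar replicate 1. Of 24 ADAMTS and HTRA genes 7 were higher and 7 lower. The shares called were 52.6% and 58.3%, against 47.7% of all genes tested.

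Of 22 collagen modifying and crosslinking enzymes 10 were higher and 3 lower (median -0.02). P3h2, a prolyl 3-hydroxylase, had 114, 141, 177 and 158 CPM in flexor libraries, against 11.6, 12.1, 8.40 and 8.43 CPM in supraspinatus libraries (log2 fold change 3.86, SE 0.36, adjusted p 2.24e-06). P4ha3, a prolyl 4-hydroxylase subunit, averaged 98.3 ± 17.6 CPM in flexor, against 10.4 ± 5.27 CPM in supraspinatus tendon (log2 fold change 3.24, SE 0.55, adjusted p 2.50e-04). Lysyl oxidase (Lox), which starts crosslinks, had 399.8, 482, 498 and 402 CPM in flexor libraries, against 246, 203, 93.1 and 69.6 CPM in supraspinatus libraries (log2 fold change 1.54, SE 0.45, adjusted p 0.0117). The Lox call was lost with each of the 3 muscle terms (1.30, adjusted p 0.0827 with the score). Plod2, the lysyl hydroxylase of pyridinoline crosslinks, was lower at 147 ± 21.7 CPM in flexor, against 322 ± 23.1 CPM in supraspinatus tendon (log2 fold change -1.13, SE 0.38, adjusted p 0.023), a call lost without flexor replicate 4 or supraspinatus replicate 1. The Plod2 call was also lost with the muscle score (-0.74, adjusted p 0.166) and with the muscle share (adjusted p 0.929). It was kept with the score in the 8 libraries alone (adjusted p 0.0394). The count of lower enzymes was 7 without flexor replicate 2 and 5 without supraspinatus replicate 4.

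Channels and adhesion genes of force sensing also split. Piezo1, a channel opened by membrane stretch, had 202, 227, 205 and 163 CPM in flexor libraries, against 67.5, 64.0, 67.6 and 49.3 CPM in supraspinatus libraries (log2 fold change 1.68, SE 0.15, adjusted p 1.42e-06). Piezo2, its relative in sensory neurons, averaged 10.3 ± 2.46 CPM in flexor, against 15.9 ± 5.65 CPM in supraspinatus tendon and was not called (adjusted p 0.138). Trpv4, a channel of chondrocytes and tendon cells, had 13.2, 15.6, 13.5 and 9.98 CPM in flexor libraries, against 62.0, 47.1, 42.3 and 35.9 CPM in supraspinatus libraries and was lower (log2 fold change -1.84, SE 0.27, adjusted p 7.05e-05). Grin2c, an NMDA receptor subunit, averaged 12.9 ± 3.25 CPM in flexor, against 0.601 ± 0.165 CPM in supraspinatus tendon (log2 fold change 4.42, SE 0.28, adjusted p 9.71e-08), one of 7 higher among 14 ionotropic glutamate receptor genes. Among 28 integrin and adhesion genes 9 were higher and 6 lower (53.6% called, against 47.7% of all genes tested). Itgb5, a vitronectin receptor subunit, averaged 186 ± 39.6 CPM in flexor, against 22.3 ± 3.52 CPM in supraspinatus tendon (log2 fold change 3.06, SE 0.22, adjusted p 3.42e-07), and Itga7, the laminin receptor of muscle, averaged 74.3 ± 19.97 CPM in flexor, against 224 ± 50.9 CPM in supraspinatus tendon (log2 fold change -1.60, SE 0.27, adjusted p 2.52e-04).

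Schwann cell and nerve genes had the highest share of called members among the cell type lists. Of 18 Schwann cell and nerve genes 15 were higher and 0 lower (median 3.31), and 13 stayed higher with the muscle score. Sox10, the lineage factor, had 22.2, 18.7, 7.39 and 17.3 CPM in flexor libraries, against 0.588, 0.407, 0.614 and 0.485 CPM in supraspinatus libraries. Every flexor library lay above every supraspinatus library (log2 fold change 4.96, SE 0.38, adjusted p 4.80e-07). Myelin basic protein (Mbp) averaged 355 ± 128 CPM in flexor, against 6.33 ± 1.056 CPM in supraspinatus tendon (log2 fold change 5.81, SE 0.92, adjusted p 1.44e-04). S100b, which cartilage and fat cells also make, averaged 357 ± 88.6 CPM in flexor, against 262 ± 63.2 CPM in supraspinatus tendon and was not called (adjusted p 0.25). The summed level of the list ran from 2590 to 4131 CPM in flexor and from 823 to 962 CPM in supraspinatus libraries.

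Some genes named for their large fold are known from myelin, and were picked by that fold. Fa2h, a fatty acid hydroxylase of myelin lipids, had 17.9, 17.5, 6.57 and 17.8 CPM in flexor libraries, against 0.0613, 0.0255, 0.0279 and 0.0809 CPM in supraspinatus libraries (log2 fold change 8.24, SE 0.998, adjusted p 1.81e-05). Pmp2, a lipid carrier of peripheral myelin, averaged 35.2 ± 15.7 CPM in flexor, against 0.161 ± 0.0629 CPM in supraspinatus tendon (log2 fold change 7.78, SE 1.46, adjusted p 5.28e-04), and Ugt8, which makes the myelin lipid galactosylceramide, averaged 29.2 ± 10.4 CPM in flexor, against 0.207 ± 0.118 CPM in supraspinatus tendon (log2 fold change 7.14, SE 1.25, adjusted p 3.09e-04). Apod, a lipocalin of nerve and fibroblasts, averaged 310.0 ± 137 CPM in flexor, against 2.07 ± 0.656 CPM in supraspinatus tendon (log2 fold change 7.23, SE 0.95, adjusted p 3.28e-05). Flexor replicate 3 was the lowest flexor library in each of these 4 genes.

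Of 17 adipocyte genes 10 were higher and 3 lower (median 1.36). Their summed level overlapped, at 1547 to 2953 CPM in flexor and 1743 to 3988 CPM in supraspinatus libraries. The lipid droplet coat gene Plin1 had 46.0, 60.7, 40.2 and 79.0 CPM in flexor libraries, against 0.527, 1.15, 3.84 and 3.72 CPM in supraspinatus libraries (log2 fold change 4.62, SE 0.56, adjusted p 1.84e-05), and the fat cell hormone adiponectin (Adipoq) averaged 124 ± 37.9 CPM in flexor, against 11.7 ± 8.89 CPM in supraspinatus tendon (log2 fold change 3.41, SE 0.57, adjusted p 2.28e-04). Scd, a desaturase of fat cells and Schwann cells, averaged 659.6 ± 224 CPM in flexor, against 7.48 ± 2.88 CPM in supraspinatus tendon (log2 fold change 6.46, SE 0.70, adjusted p 7.20e-06). Lpl, which muscle and fat both make, was lower at 167 ± 37.3 CPM in flexor, against 519.8 ± 279 CPM in supraspinatus tendon (log2 fold change -1.64, SE 0.42, adjusted p 0.00532). Of 14 mast cell and neutrophil genes 7 were higher and 0 lower, with a median of 2.75, or 1.24 with genes at 0 in supraspinatus tendon set to their lower bound. Their summed level ran from 80.01 to 180.4 CPM in flexor and from 24.0 to 30.2 CPM in supraspinatus libraries. The mast cell tryptase Tpsab1 had 33.1, 38.2, 14.1 and 44.2 CPM in flexor libraries, against 3.69, 4.32, 2.36 and 2.91 CPM in supraspinatus libraries (log2 fold change 3.29, SE 0.43, adjusted p 3.10e-05), and the mast cell protease Cpa3 averaged 21.4 ± 8.77 CPM in flexor, against 3.06 ± 0.780 CPM in supraspinatus tendon (log2 fold change 2.81, SE 0.37, adjusted p 3.69e-05).

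Of 15 endothelial genes 8 were lower and 2 higher, or 5 lower without supraspinatus replicate 4, and with the muscle score 3 were lower and 1 higher. The endothelial cadherin Cdh5 had 103, 118, 78.3 and 85.2 CPM in flexor libraries, against 144, 195, 306 and 333 CPM in supraspinatus libraries (log2 fold change -1.35, SE 0.25, adjusted p 4.99e-04). Sox17, an arterial factor, was higher at 21.9 ± 6.61 CPM in flexor, against 5.68 ± 1.10 CPM in supraspinatus tendon (log2 fold change 1.95, SE 0.31, adjusted p 1.43e-04), and Vwf averaged 99.6 ± 39.3 CPM in flexor, against 146 ± 39.4 CPM in supraspinatus tendon and was not called (adjusted p 0.129). Smooth muscle genes depended on 1 library. Actg2, a smooth muscle actin, had 153, 117, 1.76 and 75.0 CPM in flexor libraries, against 8.01, 12.9, 10.3 and 12.3 CPM in supraspinatus libraries (log2 fold change 2.99, SE 0.82, adjusted p 0.00758), and Cnn1 had 96.9, 74.8, 1.20 and 51.4 CPM in flexor libraries, against 6.11, 10.3, 7.61 and 12.98 CPM in supraspinatus libraries (log2 fold change 2.60, SE 0.82, adjusted p 0.0166). Flexor replicate 3 lay under all other libraries in both, limma-voom called neither, and the call on Cnn1 was lost without flexor replicate 1. Of 15 pericyte and smooth muscle genes 3 were higher and 4 lower, and 6 were higher without flexor replicate 3.

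Blood, skin and bone lists differed in how many members were called. Of 15 macrophage genes 2 were higher and 0 lower, with Cd68 at 26.2 ± 4.95 CPM in flexor, against 25.0 ± 8.82 CPM in supraspinatus tendon (adjusted p 0.853). Of 12 lymphocyte genes 0 were higher and 1 lower, Cd79b, which averaged 0.0301 ± 0.0172 CPM in flexor, against 0.110 ± 0.0947 CPM in supraspinatus tendon and lost its call without any of 6 libraries. Haemoglobin beta (Hbb) averaged 59.8 ± 28.9 CPM in flexor, against 43.1 ± 13.002 CPM in supraspinatus tendon and was not called (adjusted p 0.253). The skin keratin Krt14 had 183 counts over the flexor libraries and 2 over the supraspinatus libraries, a ratio of 66.3 (95% counting interval 18.1 to 551.7). Of 14 bone genes 7 were lower and 4 higher (78.6% called), with summed levels of 326 to 575 CPM in flexor and 637 to 1017 CPM in supraspinatus libraries, and with 1 or 2 higher in nearly every fit that left out 1 library. Ibsp, a protein of mineralised matrix, had 1.92, 1.93, 3.49 and 1.67 CPM in flexor libraries, against 30.6, 149.5, 1.51 and 23.1 CPM in supraspinatus libraries, with supraspinatus replicate 3 under flexor replicates 1 to 4 and replicate 2 far above (log2 fold change -4.51, SE 1.12, adjusted p 0.00397), and limma-voom did not call it.

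Immediate early genes, which respond within minutes to growth signals, load or handling of tissue, were called in part, and 1 library set how many. Of 27 genes 10 were higher and 1 lower (median 0.55). Without supraspinatus replicate 4 the count was 19 higher (median 1.32), and without any other single library it was 9 to 11. Egr1, a zinc finger factor that tendon uses under load, had 352, 358, 1012 and 525 CPM in flexor libraries, against 74.7, 71.3, 95.3 and 175 CPM in supraspinatus libraries (log2 fold change 2.43, SE 0.37, adjusted p 1.02e-04). Jund, an AP-1 member, had 92.2, 85.6, 478 and 387 CPM in flexor libraries, against 9.78, 8.94, 19.996 and 19.7 CPM in supraspinatus libraries (log2 fold change 4.16, SE 0.75, adjusted p 3.87e-04), and Klf2, the shear stress factor, averaged 180.1 ± 93.7 CPM in flexor, against 12.6 ± 5.08 CPM in supraspinatus tendon (log2 fold change 3.84, SE 0.54, adjusted p 5.25e-05). Fos had 178, 222, 1535 and 842 CPM in flexor libraries, against 78.3, 81.3, 292 and 1161 CPM in supraspinatus libraries. It ranged widely in both tendons and was not called with all libraries (adjusted p 0.457). Arc was the lower one, at 5.23 ± 1.26 CPM in flexor, against 32.7 ± 24.1 CPM in supraspinatus tendon (log2 fold change -2.64, SE 0.46, adjusted p 2.93e-04).

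Stress kinase phosphatases and clock genes followed in part. Dusp1, which switches off MAP kinases, had 929, 1034, 1897 and 1383 CPM in flexor libraries, against 199, 176, 176 and 279 CPM in supraspinatus libraries (log2 fold change 2.66, SE 0.34, adjusted p 2.43e-05). Dusp3 was lower at 116 ± 7.73 CPM in flexor, against 243 ± 39.2 CPM in supraspinatus tendon (log2 fold change -1.06, SE 0.12, adjusted p 1.13e-05). Of 11 dual-specificity phosphatases 5 were higher and 2 lower. Of 19 clock genes 6 were higher and 1 lower, with Bhlhe41 at 26.2 ± 3.36 CPM in flexor, against 2.61 ± 0.475 CPM in supraspinatus tendon (log2 fold change 3.33, SE 0.57, adjusted p 2.72e-04) and Cry1 at 17.4 ± 2.07 CPM in flexor, against 3.53 ± 0.174 CPM in supraspinatus tendon (log2 fold change 2.30, SE 0.47, adjusted p 0.00104), while Nr1d1 was the lower one at 328 ± 57.5 CPM in flexor, against 438 ± 67.1 CPM in supraspinatus tendon (log2 fold change -0.42, SE 0.16, adjusted p 0.041). The time of day of dissection is not given in the sources used here. The call on Nr1d1 was lost in the 8-library fit and without flexor replicate 4 or supraspinatus replicate 1, 2 or 3.

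The start regions of Egr1, Dusp1 and Jund are shown because these genes were higher in all 4 flexor libraries and are known targets of serum response factor or of the cAMP pathway. They come from the same RefSeq table, with Egr1 on the plus strand of chr18:26736828-26737127, Dusp1 on the plus strand of chr10:17184603-17184902 and Jund on the minus strand of chr16:18769722-18770021 in GRCr8. Capitals mark the CArG box and the cAMP response element TGACGTCA on either strand.
Egr1: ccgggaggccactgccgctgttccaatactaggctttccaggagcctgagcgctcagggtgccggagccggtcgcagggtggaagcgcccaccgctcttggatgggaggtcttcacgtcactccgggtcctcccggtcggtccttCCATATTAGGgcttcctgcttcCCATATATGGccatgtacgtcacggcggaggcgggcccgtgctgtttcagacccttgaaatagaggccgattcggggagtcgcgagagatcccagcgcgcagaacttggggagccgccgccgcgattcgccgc
Dusp1: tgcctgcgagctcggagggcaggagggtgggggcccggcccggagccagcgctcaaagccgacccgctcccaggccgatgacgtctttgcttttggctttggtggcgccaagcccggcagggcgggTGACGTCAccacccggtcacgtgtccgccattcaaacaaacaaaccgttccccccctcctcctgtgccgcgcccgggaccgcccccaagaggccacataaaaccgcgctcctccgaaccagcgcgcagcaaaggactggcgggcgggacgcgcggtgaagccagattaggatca
Jund: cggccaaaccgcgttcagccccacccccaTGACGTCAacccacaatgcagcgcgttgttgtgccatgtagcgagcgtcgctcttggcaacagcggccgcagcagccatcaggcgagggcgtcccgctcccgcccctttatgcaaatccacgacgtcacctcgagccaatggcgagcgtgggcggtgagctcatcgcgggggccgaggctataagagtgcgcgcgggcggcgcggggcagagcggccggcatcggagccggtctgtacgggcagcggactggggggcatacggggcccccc
The Egr1 window holds 2 CArG boxes, and those of Dusp1 and Jund hold 1 cAMP response element each. Of 17 immediate early genes with a promoter in the table, 5 (29.4%) held a CArG box, against 1.64% of all promoters, and 4 (23.5%) a cAMP response element, against 1.91%. The list is known for such sites, and the matches show no binding.

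Of 23 heat shock chaperones 14 were lower and 1 higher (median -0.83). With the muscle score 11 heat shock chaperones were lower, and 0 were lower with the score in the 8 libraries alone or with the muscle share. Cryab, a small chaperone of muscle Z discs, had 438, 308, 229 and 461 CPM in flexor libraries, against 1964, 2449.6, 1635 and 3598 CPM in supraspinatus libraries (log2 fold change -2.75, SE 0.62, adjusted p 0.00209). Hspb6, another small chaperone of muscle, averaged 497 ± 189 CPM in flexor, against 1902 ± 802 CPM in supraspinatus tendon and was called without the score (adjusted p 0.0192), a call lost with the score (adjusted p 0.155) and without supraspinatus replicate 4. Hspa8, which all cells make, averaged 58.0 ± 5.20 CPM in flexor, against 99.0 ± 14.7 CPM in supraspinatus tendon and stayed lower with the score, at -0.63 (adjusted p 6.98e-04), but not with the score in 8 libraries (-0.16, adjusted p 0.775) or with the share (-0.071, adjusted p 0.854). Hspa2 was the only one that was higher, at 54.5 ± 5.91 CPM in flexor, against 17.1 ± 1.77 CPM in supraspinatus tendon (log2 fold change 1.67, SE 0.23, adjusted p 5.65e-05). Of 27 cell cycle genes 0 were higher and 5 lower, or 2 lower without flexor replicate 3 or 4 or supraspinatus replicate 2 or 3. Tpx2, a spindle gene, averaged 3.78 ± 2.19 CPM in flexor, against 23.3 ± 7.93 CPM in supraspinatus tendon (log2 fold change -2.62, SE 0.41, adjusted p 1.23e-04), while the proliferation marker Mki67 averaged 3.09 ± 1.45 CPM in flexor, against 3.08 ± 0.933 CPM in supraspinatus tendon and was not called (adjusted p 0.994).

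Other genes were named for their small p, a choice that favours a small spread within each tendon. Ssbp3, a partner of LIM homeodomain factors, had 47.5, 49.4, 55.8 and 49.5 CPM in flexor libraries, against 8.43, 8.38, 9.46 and 8.90 CPM in supraspinatus libraries (log2 fold change 2.52, SE 0.11, adjusted p 3.77e-09). Phc2, a Polycomb group gene, had 113, 124, 119 and 124 CPM in flexor libraries, against 20.2, 22.6, 23.4 and 23.2 CPM in supraspinatus libraries (log2 fold change 2.43, SE 0.13, adjusted p 5.94e-08). Gnaq, a G protein subunit, averaged 27.4 ± 1.82 CPM in flexor, against 4.96 ± 0.341 CPM in supraspinatus tendon (log2 fold change 2.47, SE 0.14, adjusted p 6.25e-08), and Slc44a1, a choline transporter, averaged 139 ± 20.3 CPM in flexor, against 24.1 ± 1.39 CPM in supraspinatus tendon (log2 fold change 2.53, SE 0.14, adjusted p 6.25e-08). In the other direction Vps36, of the ESCRT-II complex, had 41.4, 39.7, 35.2 and 38.4 CPM in flexor libraries, against 82.1, 70.0, 72.5 and 87.0 CPM in supraspinatus libraries (log2 fold change -1.01, SE 0.078, adjusted p 5.29e-07). Asb13 averaged 11.6 ± 1.998 CPM in flexor, against 35.8 ± 2.93 CPM in supraspinatus tendon (log2 fold change -1.62, SE 0.13, adjusted p 7.50e-07), and Dnajc2, a ribosome-bound chaperone, averaged 27.9 ± 2.62 CPM in flexor, against 68.6 ± 8.87 CPM in supraspinatus tendon (log2 fold change -1.30, SE 0.11, adjusted p 1.17e-06).

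Further genes had large folds in either direction. Igfbp2, an IGF binding protein of the FGF, IGF and PDGF list, had 26.7, 16.9, 0.447 and 20.4 CPM in flexor libraries, against 0.0490, 0.0891, 0.0279 and 0.0971 CPM in supraspinatus libraries (log2 fold change 7.92, SE 1.24, adjusted p 1.33e-04), with flexor replicate 3 far under the other flexor libraries, and limma-voom did not call it. Hcn4, a pacemaker channel, had 8.67, 13.4, 2.96 and 8.51 CPM in flexor libraries, against 0.0858, 0.0764, 0.0279 and 0.0971 CPM in supraspinatus libraries (log2 fold change 6.84, SE 0.77, adjusted p 9.62e-06). Adh6, an alcohol dehydrogenase, averaged 112 ± 14.0 CPM in flexor, against 0.907 ± 0.317 CPM in supraspinatus tendon (log2 fold change 6.94, SE 0.59, adjusted p 1.08e-06). Lower in flexor tendon were Lipg, a lipase of endothelium, at 3.43 ± 0.978 CPM in flexor, against 58.8 ± 13.3 CPM in supraspinatus tendon (log2 fold change -4.10, SE 0.48, adjusted p 1.38e-05), Tekt1, a protein of cilia, at 0.382 ± 0.102 CPM in flexor, against 6.79 ± 1.20 CPM in supraspinatus tendon (log2 fold change -4.15, SE 0.49, adjusted p 1.54e-05), and Chodl, a membrane lectin of the satellite cell and myogenic list, at 24.1 ± 8.14 CPM in flexor, against 146 ± 14.1 CPM in supraspinatus tendon (log2 fold change -2.60, SE 0.42, adjusted p 1.68e-04). The myosin, actin, haemoglobin, tryptase and glycolysis families hold near-identical copies, so reads may be split among their members, and the strand setting of the counting is not given in the sources used here, so overlapping genes cannot be told apart.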

How the data were processed

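Total RNA of 16 rat tendon libraries was sequenced by the authors, who deposited raw counts per Ensembl gene. HISAT2, FastQC, edgeR and the build rn6 are named per the submitters' processing notes; their versions and roles, the annotation and any strand setting were not given in the sources used here. The authors' deposited edgeR table holds log2 fold changes, mean log2 CPM, p-values and FDR per the file headers; only its calls were counted here.

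From the counts, genes were kept with edgeR 4.0.16 (R 4.3.3) filterByExpr (minimum count 10, total 15), scaled by TMM and tested with glmQLFit and glmQLFTest, 1 coefficient per tendon over 16 libraries (12 residual degrees of freedom), Benjamini-Hochberg adjusted over all genes tested. Each SE was taken as |log2 fold change| divided by the root of the F statistic. The muscle score is the mean log2 CPM (prior count 2) of 11 fast fibre genes, and its slope was tested in a fit with tendon terms, leaving these genes out. The share term used the percent of counts in fast fibre, sarcomere and triad genes. limma 3.58.1 (voom), DESeq2 1.42.0, other scalings, filters, a 2-fold threshold, the 8 libraries alone, a replicate block and fits without each library were alternatives. The fits were tested on simulated data. Library totals lay between 63397591 and 102491699 counts, and between 81788059 and 102130759 in the 8 forelimb libraries.

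Named genes were those with adjusted p under 0.05, at least 5 CPM in the higher tendon and no overlap, up to 12 by fold and 8 by p per direction, among all genes and among genes outside the muscle and energy lists that also passed with the score, 2 to 6 examples for each of 50 lists, and up to 8 lower genes of no list with a positive slope on the score. Members and lists were chosen with earlier results of these data known. Results for 2 list genes are not reported here.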

Additional observations from a re-analysis of the deposited data

Results flagged for a closer look

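The values of each named gene, of the muscle share and of the muscle score in 1 tendon made 474 sets of 4. Of these sets, 21 held a library whose gap to its nearest neighbour took up nearly the whole range of the group by Dixon's test. Chance gives about 1 in 20, and 21 of 474 is not above that. In 9 of the 21 the library was flexor replicate 3. It was low for genes of Schwann cells, with Dhh at 4.73 CPM (others 12.8 to 13.5), Fa2h at 6.57 CPM (others 17.5 to 17.9) and Prx at 79.4 CPM (others 172 to 189), and for the BMP antagonist Sostdc1 at 6.42 CPM (others 19.6 to 21.8). It was high for Cilp at 2405 CPM (others 1381 to 1500), Fbln1 at 618 CPM (others 393 to 410), Ibsp at 3.49 CPM (others 1.67 to 1.92), Irx3 at 8.16 CPM (others 4.39 to 4.75) and Tbx5 at 39.4 CPM (others 25.3 to 25.9). The same library had the lowest muscle share of the flexor libraries, 1.98%, and whether these values share a source was not tested.

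Other flexor libraries stood out for Lipg in replicate 1, at 4.89 CPM (others 2.78 to 3.04), for Tigd4 in replicate 2, at 8.51 CPM (others 5.74 to 6.20), and for Tnc in replicate 2, at 149 CPM (others 109.7 to 111). Supraspinatus replicate 4, the library with the highest muscle share, stood out for myoglobin (Mb) at 11630.0 CPM (others 4230 to 5186), Mbp at 7.91 CPM (others 5.71 to 5.87), Meis1 at 13.8 CPM (others 16.8 to 17.4) and Hoxc6 at 2.49 CPM (others 3.76 to 3.86). Supraspinatus replicate 1 stood out for Shh at 0.0368 CPM (others 0), Grin2a at 0.539 CPM (others 0.795 to 0.815) and Hbb at 23.7 CPM (others 48.5 to 50.9). Supraspinatus replicate 2 stood out for Aldh1a3 at 7.63 CPM (others 4.34 to 4.74) and Htra4 at 5.74 CPM (others 1.14 to 1.80).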

How the results depend on the processing

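The count of 8082 genes that differed ran from 6905 to 8602 when 1 library was left out, the lowest without supraspinatus replicate 4. Larger changes came from the muscle terms, with 6070 calls with the score, 1887 (1705 higher, 182 lower) with the score in 8 libraries and 512 (392 higher, 120 lower) with the share, from a 2-fold threshold, with 1775 (1398 higher, 377 lower), and from plain library totals, with 6591 higher and 1830 lower. With the score as a term, the 6070 calls ran from 4866 to 6520 with 1 library left out, were 1887 in 8 libraries and 512 with the share in its place, and were 1133 (994 higher, 139 lower) with the 2-fold threshold and 5223 higher and 1103 lower with library totals. The 317 slopes ran from 119 (118 positive, without patellar replicate 1) to 418, and were 177 (165 positive) with the replicate block, 529 with DESeq2 and 1138 (796 positive) with the share. The cause of these changes was not tested, apart from the smaller number of libraries or the stricter threshold that the alternatives themselves bring.

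Same-numbered flexor and supraspinatus libraries deviated together with correlations of 0.0826, 0.137, 0.172 and 0.259, and flexor replicates 2, 3 and 4 each correlated best with their own number, while flexor replicate 1 correlated best with supraspinatus replicate 4 (0.101). Pairs with different numbers ran from -0.227 to 0.128. These values are a hint of pairing from the data, not from the labels. The labels do not say whether a number marks 1 animal, so the main fit has no replicate block. A replicate block gave 8064 calls, 5586 with the muscle score and 177 slopes in place of 317.

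Of 235 named genes 201 were called. Of these, 173 kept call and direction under every alternative, without a muscle term or 2-fold threshold, in which they were tested. An alternative whose filter removed a gene was not counted against it. Among named genes called in the main fit or in the alternative, directions changed only with a muscle term. Genes called in neither fit are not listed, and some of them changed sign as well. Ckm, for example, stood at -2.53 without and 0.24 with the score, and Pax7 at -1.34 and 2.10. On the log2 scale, the listed changes were Shisal2b 0.51, Myh4 0.80 and Myh8 0.96 with the score. With the share they were Ppp1r27 1.23, Mylk2 0.60, Ampd1 1.57, Tmem233 1.70, Shisal2b 1.05, Aqp4 1.29, Tbx5 -0.92, Wnt16 0.078, Fras1 1.93, Dcn -0.14, Lox -0.025, Hspb6 0.99, Actn3 0.27, Mybpc2 0.57, Pvalb 1.04, Des 0.52, Aldoa 0.99, Gapdh 0.60, Cd68 -1.62, Atp5f1b 0.23 and Tp63 1.09. With the score in 8 libraries they were Shisal2b 0.78, En1 0.041, Ccnd1 0.10, Col24a1 0.00039, Fras1 1.28, Myh8 1.13, Ndufa4 0.18, Aldoa 0.16, Gapdh 0.046 and Atp5f1b 0.20. With library totals the median of all genes moved to 0.31, and the medians of the fibrocartilage, collagen network, basement membrane, sheath, ADAMTS, collagen modifying, channel and cell cycle lists lay above 0. These 8 libraries limit the muscle separation, since the muscle shares of the tendons did not overlap.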
